A study of Mus musculus with 6 samples.

Results

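The gene set described here holds 44 genes of the interferon response and of class I antigen presentation, read from a table of 30349 genes measured in cultured mouse keratinocytes. The genes were listed by name for what they are known to do, but the list was made with earlier results of these data known. They fall into 6 RNA sensors and double-stranded RNA binding proteins, 2 interferon receptor chains, 4 Stat and Irf transcription factor genes, 19 effector and feedback genes, and 13 genes of class I presentation. Genes of the Ifitm family are not among them. All 44 are listed in the table, 41 had at least 1 read in some library, and 26 averaged 1 CPM or more (counts per 1000000 reads of a library) over the 6 libraries and so were tested.

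Interferons are secreted proteins that warn cells of infection. Sensors in the cytosol recognise viral RNA and switch on interferon genes, and interferon bound to its receptor activates Stat proteins, which enter the nucleus with Irf9 and switch on interferon-stimulated genes. A second arm raises class I presentation, in which the proteasome cuts proteins into peptides, the Tap transporter carries them into the endoplasmic reticulum, and a heavy chain paired with beta-2-microglobulin shows them to T cells. Keratinocytes are the outer barrier of the skin and can run this response themselves. Most effector genes are transcribed little in cells that have not met interferon, whereas class I genes keep a basal level.

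The libraries came from 3 cultures of the p63 alphaKO genotype (replicates 9, 10 and 11) and 3 wild type cultures (replicates 13, 14 and 15). Per the labels and the series description, these were primary epidermal cells of mice at postnatal day 2, freed from the dermis with Dispase and dissociated with Accutase. They were kept for 5 to 6 days in 0.05 mM calcium, 4% chelated serum and 2.5 ng/mL EGF until confluent, and RNA was read by 3' digital gene expression. The genotype concerns Trp63, which encodes p63, a transcription factor of stratified epithelia made in several isoforms, of which the alpha forms have the longest C-terminus. The sources used here give neither the mouse strain nor the part of Trp63 that the allele lacks, and they leave unsaid if each culture was a separate animal, so p-values measure the spread between these samples.

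The p63 alphaKO libraries held 1699716 to 2999246 reads (6887667 together) and the wild type libraries 3146374 to 3215333 reads (9542691 together). Reads given below per group are not scaled for this difference, whereas CPM and read ratios are. A gene listed at 0 may have up to 1.00 to 1.76 CPM in a p63 alphaKO library and 0.933 to 0.953 CPM in a wild type library, the level of 3 reads. Trp63 was read at 49.8, 59.3 and 57.0 CPM in p63 alphaKO and at 38.0, 53.2 and 48.9 CPM in wild type, a level per gene that does not check the genotype. Basal keratin Krt14 stood between 10394 and 15124 CPM in p63 alphaKO and between 12188 and 14058 CPM in wild type. Among the 12 keratinocyte markers looked up, Krt1 passed the threshold used below, lower in p63 alphaKO (log2 fold change -2.44, limma adjusted p = 0.00686). Krt10 (-1.60) and Krt15 (-2.02) did not pass, with no overlap between the groups and p63 alphaKO lower. On the first principal component (33.2% of the variance), p63 alphaKO replicate 11 (61.2) and wild type replicate 15 (13.6) lay apart from the other 4 libraries (-26.9 to -8.74), so results that rest on them are also given without them. In bulk cultures, fewer cells of a type and less RNA per cell cannot be told apart.

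The comparison asks whether interferon and presentation genes differ between p63 alphaKO and wild type keratinocytes. Both receptor chains, 4 of the 6 sensors, 3 of the 4 Stat and Irf genes and 9 of the 13 class I genes had a read in every library, as did 4 of the 19 effectors. No member passed the threshold, an adjusted p under 0.05 over all 11716 genes tested with limma, where 5 genes (0.0427%) passed. Ifitm3, an interferon-induced gene of the family left out of the set, was 1 of those 5, higher in p63 alphaKO (log2 fold change 1.30, limma adjusted p = 0.0479). It did not pass in every setting, since 0 genes passed when limma was run without its trend. Adjusted p-values of the members ran from 0.767 to 0.999, and edgeR and DESeq2 on the recovered reads called no member either. At an unadjusted p under 0.05 there were 4 members, Ddx58, Ifnar1, Irf9 and Parp14, all higher in p63 alphaKO. Over all genes tested, 6.36% were at that level, 3.01% higher in p63 alphaKO and 3.35% lower. By that unadjusted measure edgeR had 2 members (Ddx58 and Ifnar1) and DESeq2 had 0.

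Of the 26 tested members, 19 had a log2 fold change (p63 alphaKO minus wild type, on log2(CPM + 1)) above 0, with a median of 0.20. Over all genes tested, 50.7% lay above 0 and the median was 0.0064. The median was 0.63 for the 2 receptor chains, 0.37 for 4 sensors, 0.31 for 4 Stat and Irf genes, 0.13 for 7 effectors and 0.04 for 9 class I genes. Between replicates, the median deviation of the tested members had an SD of 0.12. By role that SD was 0.28 for receptor chains, 0.27 for sensors, 0.45 for Stat and Irf genes, 0.12 for effectors and 0.14 for class I genes. When 1 library was left out, the medians ran from 0.40 to 0.74 for receptor chains, from 0.13 to 0.58 for sensors and from 0.10 to 0.68 for Stat and Irf genes. For effectors, leaving out wild type replicate 13 gave -0.029 and leaving out replicate 15 gave -0.10, with values up to 0.26, and by edgeR it was -0.054. For class I genes it was -0.051 without p63 alphaKO replicate 9, with values up to 0.16. The filter on low values also moved these medians. With a minimum mean of 5 CPM the median was 0.20 for 7 class I genes and 0.63 for 2 effectors. With no filter it was 0.20 for 13 class I genes and 0.11 for 16 effectors. The group libraries did not overlap for 1 tested member, B2m, higher in p63 alphaKO, where 11.5% of all genes tested did so, 6.45% with p63 alphaKO higher and 5.09% with it lower.

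**Figure D1:**
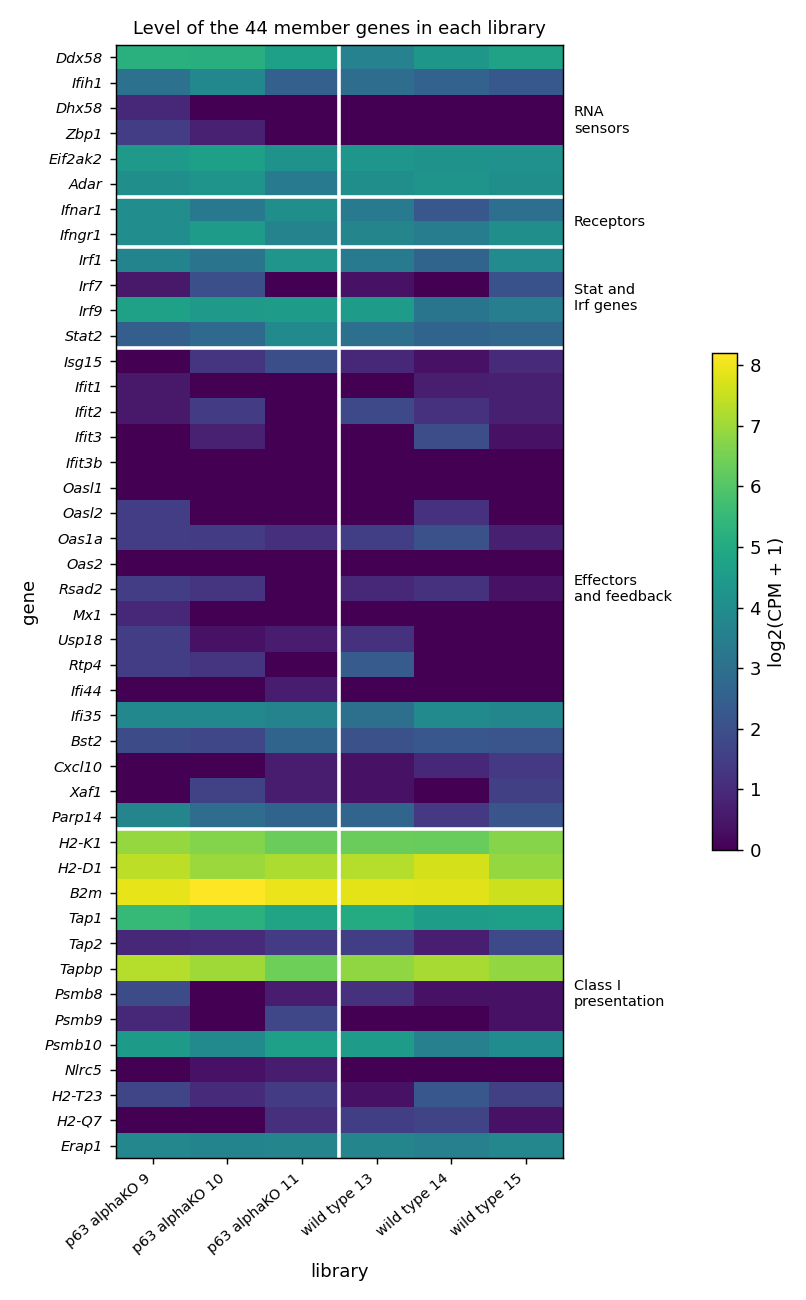
Level of each of the 44 genes (rows, by role) in each library (columns, p63 alphaKO left of the white line and wild type right of it), as log2(CPM + 1) by colour. Class I genes such as B2m, H2-D1, H2-K1 and Tapbp are bright in all 6 libraries, and most effector rows are dark in both groups.

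What the members share outside these measurements can be read from their promoters. Windows of 250 bases before to 50 bases from the annotated start were found in RefSeq (GRCm38.p6) for 35 of the 44 genes. The core of the interferon-stimulated response element, the site bound by the complex of Stat proteins with Irf9, was searched as GAAA, any 2 bases and GAAA again, and, on the other strand, TTTC, any 2 bases and TTTC. It was found in 15 of those 35 genes, beside 3.99% of all 27025 genes with a window. By role it was in 3 of 4 sensors, 0 of 2 receptor chains, 1 of 4 Stat and Irf genes, 8 of 14 effectors and 3 of 11 class I genes. The gamma-activated site TTCNNNGAA, which reads the same on both strands, was in 9 of the 35, beside 9.55% of all genes. Matches of the first motif overlapped each other by 4 bases in Isg15, Oas1a and Bst2, and in Bst2 a match of each motif shared 3 bases. Since the genes were listed as interferon genes, these shares describe the list, and a match is no evidence of binding.

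The windows shown first hold a match in genes read in every library (Ddx58, Ifih1 and B2m) and in one with few reads (Ifit3). Capitals mark the matches, 5' to 3' on the gene's own strand.
Ddx58, chr4:40239776-40240075, minus strand: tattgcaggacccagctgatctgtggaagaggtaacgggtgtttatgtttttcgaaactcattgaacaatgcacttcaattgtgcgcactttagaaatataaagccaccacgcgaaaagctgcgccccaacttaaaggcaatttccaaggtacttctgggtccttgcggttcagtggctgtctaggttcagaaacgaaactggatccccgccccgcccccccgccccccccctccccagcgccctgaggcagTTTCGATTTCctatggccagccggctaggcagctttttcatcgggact
Ifih1, chr2:62646206-62646505, minus strand: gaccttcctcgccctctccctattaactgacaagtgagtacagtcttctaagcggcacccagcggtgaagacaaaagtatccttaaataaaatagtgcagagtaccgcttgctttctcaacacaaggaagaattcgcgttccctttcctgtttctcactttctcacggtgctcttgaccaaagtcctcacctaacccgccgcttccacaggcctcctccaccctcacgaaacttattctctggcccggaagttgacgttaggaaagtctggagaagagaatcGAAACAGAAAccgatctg
B2m, chr2:122147437-122147736, plus strand: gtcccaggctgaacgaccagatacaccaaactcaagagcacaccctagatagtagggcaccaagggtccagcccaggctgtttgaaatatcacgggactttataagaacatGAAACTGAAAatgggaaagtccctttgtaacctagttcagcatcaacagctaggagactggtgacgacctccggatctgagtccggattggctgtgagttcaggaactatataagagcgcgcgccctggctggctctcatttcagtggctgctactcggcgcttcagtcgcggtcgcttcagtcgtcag
Ifit3, chr19:34583279-34583578, plus strand: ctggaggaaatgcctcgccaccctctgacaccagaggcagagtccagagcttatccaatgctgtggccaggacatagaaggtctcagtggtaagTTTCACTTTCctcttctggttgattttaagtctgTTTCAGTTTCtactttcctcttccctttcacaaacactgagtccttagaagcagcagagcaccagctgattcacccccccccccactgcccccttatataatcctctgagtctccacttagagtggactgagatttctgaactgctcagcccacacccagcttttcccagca
In Ddx58 and Ifih1 the match starts 3 and 33 bases into the transcript, in B2m 139 bases before the start, and Ifit3 holds 2 matches at -156 and -122. Ifit3b, a near-copy of Ifit3 beside it on chromosome 19, holds the same pair at -188 and -154.
Ifit3b, chr19:34607707-34608006, plus strand: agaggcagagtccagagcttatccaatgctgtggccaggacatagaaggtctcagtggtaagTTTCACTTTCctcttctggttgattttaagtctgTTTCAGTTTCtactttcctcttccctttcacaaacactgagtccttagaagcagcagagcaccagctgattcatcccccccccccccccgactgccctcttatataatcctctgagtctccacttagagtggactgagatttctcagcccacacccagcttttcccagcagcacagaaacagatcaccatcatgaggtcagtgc
The Ifit3 and Ifit3b windows align over 274 positions with 258 identical (94.2%). The 15 genes with a match ranged from 0 reads in all libraries together (Ifit3b) to 3899 (B2m).

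**Figure D2:**
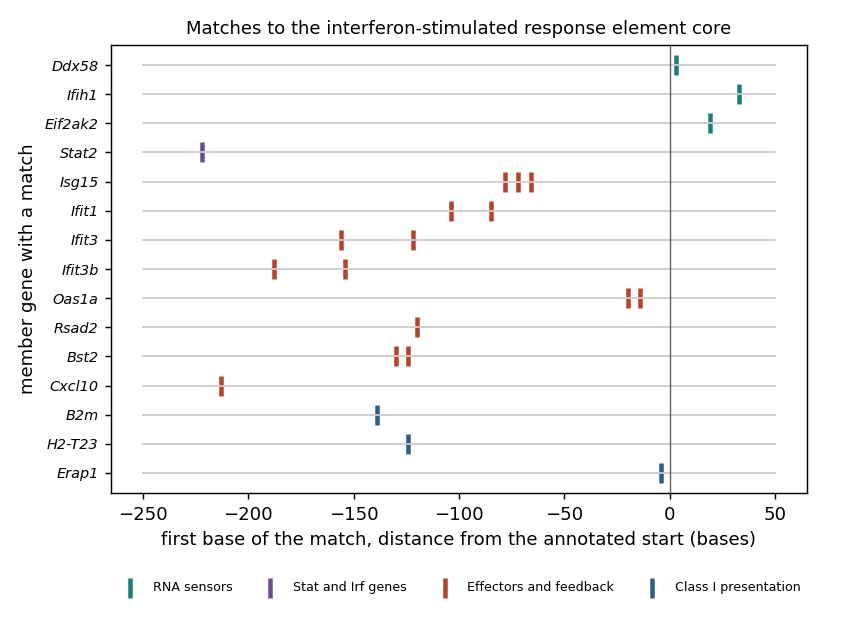
Position of each response element core match (vertical mark, first base) in the promoter windows of the 15 members that have one, in bases from the annotated start, coloured by role. The 3 sensors have it just after the start, and the effectors have it before the start, with Isg15 holding 3 overlapping matches.

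Among the RNA sensors, Ddx58 encodes RIG-I, the helicase that detects short viral RNA with a free triphosphate end (chromosome 4, 40203773 to 40239828, minus strand). It was read at 36.1, 35.0 and 23.5 CPM in p63 alphaKO replicates 9, 10 and 11, against 11.3, 19.3 and 25.4 CPM in wild type replicates 13, 14 and 15. The groups overlap, because p63 alphaKO replicate 11 lay below wild type replicate 15. The log2 fold change was 0.77 (SE 0.34, 95% interval 0.06 to 1.48, n = 3 per group, limma adjusted p = 0.767). Without p63 alphaKO replicate 11 it was 0.96, and without wild type replicate 13 it was 0.47. Without both p63 alphaKO replicate 11 and wild type replicate 15 it was 1.21 (limma adjusted p = 0.161). The groups did not overlap there, as for 40.4% of all genes tested in that setting. Its relative Ifih1, a helicase that detects long double-stranded RNA, was at 7.31, 13.3 and 4.70 CPM in p63 alphaKO and 6.60, 4.97 and 3.81 CPM in wild type (log2 fold change 0.55, SE 0.45, limma adjusted p = 0.910). The highest value was that of p63 alphaKO replicate 10, without which the log2 fold change was 0.19, and it was 0.86 without p63 alphaKO replicate 11. The groups overlap.

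Eif2ak2, the kinase PKR that stops translation on double-stranded RNA, was at 20.1, 24.0 and 17.1 CPM in p63 alphaKO and 18.9, 17.1 and 16.8 CPM in wild type, for a log2 fold change of 0.19. Adar, which edits adenosine in double-stranded RNA and so keeps self RNA from these sensors, was at 16.0, 18.0 and 9.40 CPM in p63 alphaKO and 16.0, 18.0 and 15.9 CPM in wild type (log2 fold change -0.23). Its low value is that of p63 alphaKO replicate 11, without which the log2 fold change was 0.028. Exons of Adar share 1365 bases with Chrnb2 on the opposite strand, and the labels do not say whether counting used strand. Dhx58, the third helicase of the family, had 2 reads over p63 alphaKO libraries and 0 over wild type ones. Zbp1, a sensor of Z-form nucleic acids, had 6 reads in p63 alphaKO replicates 9 and 10 together and 0 in wild type, with 3 reads over the group as the limit for wild type (0.314 CPM).

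Both receptor genes were read in every library. Ifnar1, a chain of the type I interferon receptor (chromosome 16, 91485238 to 91507441, plus strand), was at 15.1, 9.00 and 15.9 CPM in p63 alphaKO and at 9.11, 3.73 and 6.99 CPM in wild type. Only p63 alphaKO replicate 10, at 9.00 CPM, lay within the wild type range, just under wild type replicate 13. The log2 fold change was 0.94 (SE 0.41, 95% interval 0.08 to 1.81, n = 3 per group, limma adjusted p = 0.767), and 1.18 without p63 alphaKO replicate 10 and 0.63 without wild type replicate 14. Ifngr1, the ligand-binding chain of the interferon gamma receptor, was at 15.1, 21.99 and 11.8 CPM in p63 alphaKO and 12.3, 9.95 and 15.9 CPM in wild type, with overlapping groups and a log2 fold change of 0.31 (SE 0.35). It was 0.087 without p63 alphaKO replicate 10 and 0.51 without replicate 11, and 0.17 without wild type replicate 14 and 0.48 without replicate 15. The sum of both genes was 30.1, 31.0 and 27.6 CPM in p63 alphaKO and 21.4, 13.7 and 22.9 CPM in wild type.

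Of the Stat and Irf genes, Irf9 was fitted with the largest log2 fold change. Irf9, the DNA-binding partner of Stat2 (chromosome 14, 55603571 to 55610030, plus strand), was at 24.7, 20.3 and 22.3 CPM in p63 alphaKO and at 22.3, 8.08 and 10.5 CPM in wild type. The 3 p63 alphaKO libraries lay close together, and wild type replicate 13 stood level with them, well above the other 2 wild type libraries. The log2 fold change was 0.80 (SE 0.37, 95% interval 0.02 to 1.57, n = 3 per group, limma adjusted p = 0.775). It was 1.20 without wild type replicate 13 and 0.52 without wild type replicate 14. Exons of Irf9 share 123 bases with its neighbour Rnf31 on the same strand.

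Irf1, an activator that interferon gamma induces, was at 11.9, 8.0 and 18.2 CPM in p63 alphaKO and 9.43, 5.28 and 14.6 CPM in wild type (log2 fold change 0.37, SE 0.42). It was 0.095 without p63 alphaKO replicate 11 and 0.64 without replicate 10, and 0.033 without wild type replicate 14 and 0.69 without replicate 15. In each group the highest value came from the library set apart on the first principal component. Stat2 was at 4.57, 6.00 and 14.1 CPM in p63 alphaKO and 7.23, 5.28 and 5.72 CPM in wild type, so its log2 fold change of 0.25 rested on p63 alphaKO replicate 11 and was -0.17 without it. Irf7, which drives the later wave of interferon genes, had 10 reads in p63 alphaKO, 9 of them in replicate 10, and 11 in wild type, 10 of them in replicate 15 (log2 fold change 0.03).

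**Figure D3:**
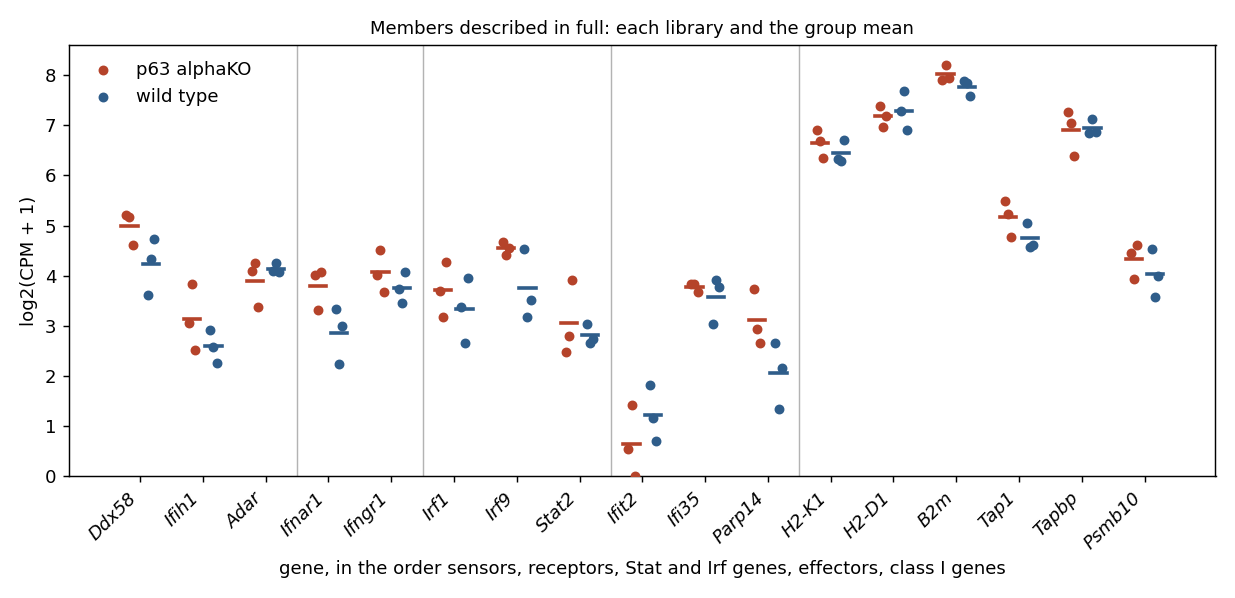
Each library (points) and the group mean (bars) for the 17 members described in full, as log2(CPM + 1), with p63 alphaKO left of wild type for each gene. The point clouds overlap for 16 of the 17 genes, and for B2m the 3 p63 alphaKO points lie above the 3 wild type points.

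Of the 19 effector and feedback genes, 4 had a read in every library: Oas1a, Ifi35, Bst2 and Parp14. Parp14, a mono-ADP-ribosyltransferase induced by interferon (chromosome 16, 35832874 to 35871544, minus strand), was at 12.3, 6.66 and 5.29 CPM in p63 alphaKO and at 5.34, 1.55 and 3.49 CPM in wild type. Its lowest p63 alphaKO value, in replicate 11, lay just under wild type replicate 13. With TMM scaling the groups no longer overlapped, as for 11.7% of all genes tested in that setting. Its fitted log2 fold change was 1.05 (SE 0.48, 95% interval 0.03 to 2.07, n = 3 per group, limma adjusted p = 0.775). It was 0.73 without p63 alphaKO replicate 9 and 0.69 without wild type replicate 14. Exons of Parp14 share 110 bases with Gm49730 on the same strand.

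Ifi35, an interferon-induced leucine zipper protein, was at 13.2, 13.3 and 11.8 CPM in p63 alphaKO and 7.23, 14.0 and 12.7 CPM in wild type (log2 fold change 0.21, SE 0.36). Wild type replicate 13 was low, without it the log2 fold change was -0.059, and the other 5 libraries lay together. Bst2, the tether that holds budding virus on the cell surface, averaged 3.45 ± 1.60 CPM in p63 alphaKO and 3.45 ± 0.297 CPM in wild type (SD, n = 3 each). Oas1a, an oligoadenylate synthetase, had 11 reads over p63 alphaKO libraries and 18 over wild type ones, and 56.1% of the 50-base words in the last 500 bases of its transcripts are also found in Oas1g, so its reads cannot be assigned with certainty.

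The genes that mark an ongoing interferon response were at the limit of detection. Isg15, a ubiquitin-like modifier, had 0, 4 and 5 reads in p63 alphaKO and 3, 1 and 3 reads in wild type. Ifit2, which blocks translation of viral RNA, had 1, 5 and 0 reads in p63 alphaKO and 8, 4 and 2 reads in wild type (log2 fold change -0.58, SE 0.65, limma adjusted p = 0.931). Rtp4 had 8 reads in p63 alphaKO, and its 13 reads in wild type all came from replicate 13. Its exons share 296 bases with Gm45338 on the same strand. Without Ifi35, Bst2 and Parp14, the other 16 effectors together had 24, 31 and 11 reads in p63 alphaKO and 39, 37 and 22 reads in wild type. Their summed level was 11.0, 10.3 and 6.48 CPM in p63 alphaKO and 12.2, 11.5 and 7.01 CPM in wild type. The groups overlapped, and the lowest sum of each group came from the library set apart on the first principal component.

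Oasl1, Oas2 and Ifit3b had no read in any library, which allows up to 0.436 CPM over the p63 alphaKO libraries and 0.314 CPM over the wild type libraries. Mx1, a GTPase that traps viral nucleocapsids, had 2 reads over p63 alphaKO libraries and 0 over wild type ones, and Ifi44 had 1 read in p63 alphaKO and 0 in wild type. Ifit1 had 1 read over p63 alphaKO libraries and 4 over wild type ones, giving a read ratio of 0.346 (exact 95% interval 0.00703 to 3.50). Ifit3 had 2 reads over p63 alphaKO libraries and 10 over wild type ones, 9 of those in replicate 14, and 14.9% of the 50-base words near its transcript end are also in Ifit3b. Cxcl10, the chemokine that draws T cells, had 1 read over p63 alphaKO libraries and 9 over wild type ones, giving a read ratio of 0.154 (exact 95% interval 0.00351 to 1.11). These intervals cover counting error on pooled reads, not the spread between libraries. Rsad2, the antiviral enzyme viperin, had 8 reads in each group, Xaf1 had 7 in each, Oasl2 had 4 in each, and Usp18, the protease that removes Isg15 and damps the receptor, had 6 in p63 alphaKO and 4 in wild type.

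Class I presentation genes drew the most reads of the set, as a 3' count that is not scaled to transcript length. B2m, the invariant light chain (chromosome 2, 122147686 to 122153083, plus strand), was at 237, 293 and 246 CPM in p63 alphaKO and at 234, 228 and 192 CPM in wild type. All 3 p63 alphaKO libraries lay above all 3 wild type libraries, the nearest pair being p63 alphaKO replicate 9 and wild type replicate 13. The log2 fold change was 0.25 (SE 0.21, 95% interval -0.20 to 0.70, n = 3 per group, limma adjusted p = 0.914). With quantile scaling the groups overlapped.

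The heavy chains carry the peptide. H2-K1 was at 119, 102 and 79.9 CPM in p63 alphaKO and 79.5, 77.4 and 104 CPM in wild type, a log2 fold change of 0.20 (SE 0.24, 95% interval -0.32 to 0.72). H2-D1 was at 167, 124 and 145 CPM in p63 alphaKO and 155, 204 and 119 CPM in wild type, a log2 fold change of -0.11 (SE 0.24, 95% interval -0.62 to 0.40) that was 0.083 without wild type replicate 14. Both genes' groups overlap, and the intervals leave room for a change of either sign. For H2-K1 the log2 fold change without 1 library ran from 0.069, without p63 alphaKO replicate 9, to 0.35, without p63 alphaKO replicate 11. Of their end 50-base words, 9.60% (H2-K1) and 8.92% (H2-D1) are shared with other genes. The non-classical H2-T23, which encodes Qa-1, had 11 reads over p63 alphaKO libraries and 19 over wild type ones, 12 of those in replicate 14. Its log2 fold change was 0.002 (SE 0.61). Of its end 50-base words 38.1% are shared with other genes, so its reads cannot be assigned with certainty. H2-Q7, which encodes Qa-2, had 0, 0 and 2 reads in p63 alphaKO and 6, 7 and 1 reads in wild type, giving a read ratio of 0.198 (exact 95% interval 0.0218 to 0.862, counting error on pooled reads), with 11.8% of its end words shared with other genes.

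Peptide supply and loading were read through the transporter, its partner tapasin, the immunoproteasome and a trimming protease. Tap1, a chain of the transporter (chromosome 17, 34187553 to 34197225, plus strand), was at 43.8, 36.7 and 26.5 CPM in p63 alphaKO and at 32.4, 22.7 and 23.5 CPM in wild type. The groups overlap through p63 alphaKO replicate 11 and wild type replicate 13. Its fitted log2 fold change was 0.42 (SE 0.30, 95% interval -0.21 to 1.05, limma adjusted p = 0.885), and 0.61 without p63 alphaKO replicate 11. Tap2, the other chain, had 8 reads over p63 alphaKO libraries and 16 over wild type ones (log2 fold change -0.22, SE 0.59). Tapbp, tapasin, was at 154, 131 and 82.9 CPM in p63 alphaKO and 114, 138 and 116 CPM in wild type. Its p63 alphaKO libraries held both the highest and the lowest values, and the log2 fold change of -0.04 was 0.21 without p63 alphaKO replicate 11.

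Psmb10, an immunoproteasome subunit, was at 21.0, 14.3 and 23.5 CPM in p63 alphaKO and 22.3, 10.9 and 14.9 CPM in wild type (log2 fold change 0.30, SE 0.35). It was 0.16 without p63 alphaKO replicate 11 and 0.50 without replicate 10, and 0.56 without wild type replicate 13 and 0.070 without replicate 14. Its partners were barely read: Psmb8 had 7 reads over p63 alphaKO libraries and 6 over wild type ones. Psmb9 had 2, 0 and 4 reads in p63 alphaKO replicates 9, 10 and 11 and 0, 0 and 1 reads in wild type. Its read ratio was 8.31 (exact 95% interval 1.01 to 382, counting error on pooled reads, not the spread between libraries). Erap1, which trims peptides in the endoplasmic reticulum, averaged 12.4 ± 0.396 CPM in p63 alphaKO and 12.1 ± 1.08 CPM in wild type (SD, n = 3 each; log2 fold change 0.04, 95% interval -0.67 to 0.75). On the opposite strand, exons of Tapbp share 904 bases with Gm19412, those of Erap1 834 with Cast, those of Tap2 533 with Gm15821 and those of Psmb8 498 with Gm20496, whose reads cannot be told apart if strand was not used. On the same strand, exons of Tapbp share 149 bases with Zbtb22. Nlrc5, the transactivator of class I genes, had 2 reads over p63 alphaKO libraries and 0 over wild type ones.

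By the RefSeq starts, Tap1 and Psmb9 are read away from each other from points 226 bases apart. The Tap1 window, chosen for display after the values were seen, covers this shared stretch and holds no match to either motif.
Tap1, chr17:34187306-34187605, plus strand: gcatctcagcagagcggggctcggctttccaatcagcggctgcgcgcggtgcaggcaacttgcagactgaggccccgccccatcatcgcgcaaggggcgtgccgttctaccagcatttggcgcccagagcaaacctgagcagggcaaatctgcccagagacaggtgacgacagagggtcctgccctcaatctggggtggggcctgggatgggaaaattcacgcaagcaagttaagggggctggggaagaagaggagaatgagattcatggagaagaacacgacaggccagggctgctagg
Tap1 had 251 reads over the p63 alphaKO libraries and 250 over the wild type libraries. GENCODE differs from RefSeq here: its Psmb9 gene, on the minus strand, reaches to 34187764, past its Tap1 start at 34187553. There 212 exon bases of the 2 genes overlap on opposite strands.

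**Figure D4:**
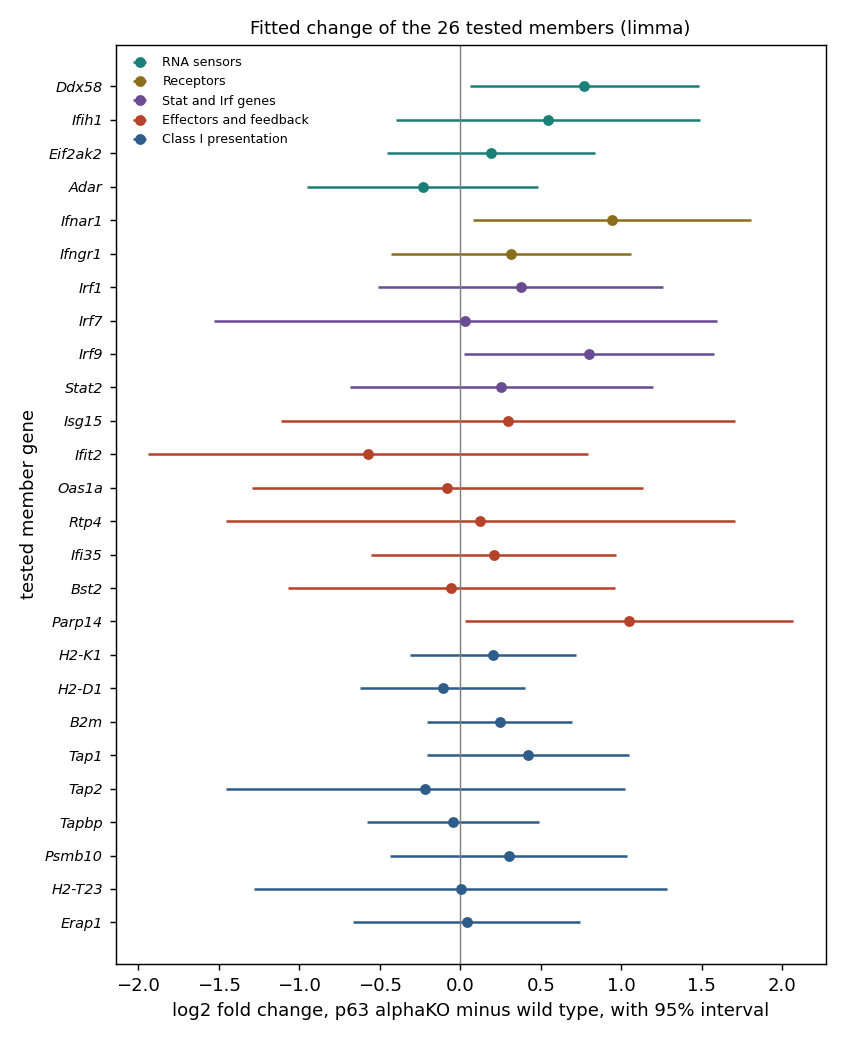
Fitted log2 fold change (p63 alphaKO minus wild type, points) with its 95% interval (lines) for the 26 tested members, coloured by role. The intervals of Ddx58, Ifnar1, Irf9 and Parp14 lie just above 0 before adjustment over all genes, and the other 22 include 0.

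The 4 members of smallest p kept their sign when any single library was left out, but not their unadjusted p. They were picked by p in these same libraries, so the kept sign is no separate test. Without p63 alphaKO replicate 9 there were 0 members under 0.05 (5.46% of all genes tested), without replicate 10 there was 1, Ifnar1 (7.53%), and without replicate 11 there were 3, Ddx58, Parp14 and Tap1 (7.69%). Without wild type replicate 13 there were 3, Ifnar1, Irf9 and Parp14 (5.48%), without replicate 14 there were 0 (3.69%), and without replicate 15 there were 2, Ddx58 and Ifnar1 (6.86%). Leaving out p63 alphaKO replicate 11 and wild type replicate 15 together gave 3, Ddx58, Parp14 and H2-K1 (9.33% of all genes tested), and no member past the threshold (smallest limma adjusted p among members 0.161), while 48 genes passed over the table.

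**Figure D5:**
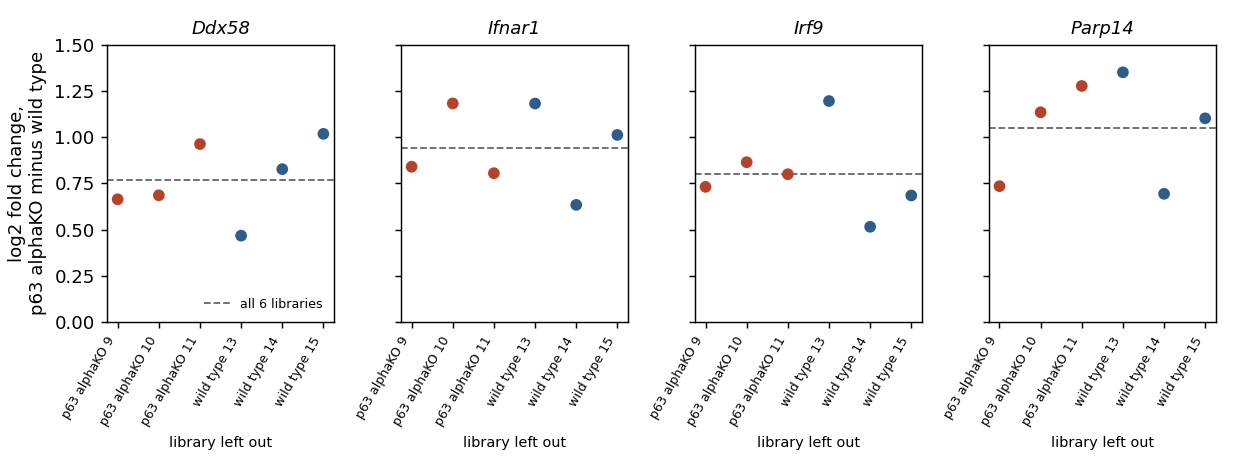
Log2 fold change of Ddx58, Ifnar1, Irf9 and Parp14 (p63 alphaKO minus wild type) when the library on the horizontal axis is left out, with the value from all 6 libraries as a dashed line. All 24 points lie above 0, between 0.47 and 1.35, and the lowest point of each gene comes from leaving out a wild type library.

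Other genes of the pathway, listed by role but with earlier results of these data known, gave 58 tested genes of 93 found in the table. No gene passed the threshold (smallest limma adjusted p 0.676). None of the 9 interferon genes looked up, among them Ifnb1, Ifnk and Ifne, had a read in any library. Of 17 tested interferon-induced genes outside the set, 14 had a log2 fold change above 0, with a median of 0.35 and none past the threshold. Cd274, the checkpoint ligand PD-L1, was at 9.13, 12.7 and 10.6 CPM in p63 alphaKO and 6.28, 5.91 and 4.45 CPM in wild type (log2 fold change 0.85, limma adjusted p = 0.767). Parp9, a partner of the ubiquitin ligase Dtx3l, was at 16.0, 13.3 and 9.99 CPM in p63 alphaKO and 8.48, 5.60 and 9.85 CPM in wild type (log2 fold change 0.66, limma adjusted p = 0.822). The 33 listed genes of this kind summed to 161, 158 and 133 CPM in p63 alphaKO and 109, 115 and 113 CPM in wild type.

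Among negative regulators, Ptpn6, a phosphatase that acts on Jak kinases, was at 26.5, 17.3 and 19.4 CPM in p63 alphaKO and 16.7, 5.28 and 7.62 CPM in wild type (log2 fold change 1.14, limma adjusted p = 0.676). Socs1, an inhibitor of Jak kinases, was at 0, 1.67 and 4.70 CPM in p63 alphaKO and 9.11, 6.22 and 1.91 CPM in wild type (log2 fold change -1.27, limma adjusted p = 0.795). The 5 tested regulators had 1 value above 0 and 4 below. Of the other factors, Irf2 had a log2 fold change of 0.54 and Irf5 of -1.03, with 1 of 5 above 0. Among sensing adaptors and kinases Ikbke stood at 0.88 and Mb21d1, which encodes cGAS, at -0.74, with 5 of 9 above 0. Receptors and kinases had 5 of 7 above 0 (Il10rb at 0.50, Ifnlr1 at -0.76), and peptide loading and proteasome genes 7 of 14 (Tapbpl at -0.38, Pdia3 at 0.24). Of the class II genes 1 was tested, H2-Eb1, at 0.58, and Ciita, H2-Aa and H2-Ab1 had no read.

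Markers of immune and Langerhans cells, which also express these genes, overlapped between the groups. The 15 markers summed to 25.1, 19.7 and 21.7 CPM in p63 alphaKO and 21.7, 16.2 and 26.7 CPM in wild type, and 7 of the 15, among them Cd207, Cd3e, Tyrobp, H2-Aa and H2-Ab1, had no read in any library. Most of the sum came from Cd68, H2-Eb1 and Csf1r, which had a read in every library (173, 106 and 67 reads over all libraries). Ptprc, the pan-leukocyte marker, reached 0.67 CPM in p63 alphaKO replicate 10 and had no read elsewhere. Melanocyte markers summed to 232 to 1026 CPM in p63 alphaKO and 308 to 823 CPM in wild type, and muscle markers to 17.4 to 67.6 CPM in p63 alphaKO and 63.7 to 502 CPM in wild type, the highest being wild type replicate 15. The part of these cells in the members' values was not tested.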

How the data were processed

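RNA was measured by 3' digital gene expression in 3 p63 alphaKO and 3 wild type libraries. The submitters' processing notes name STAR, HTSeq and mm10, without roles or versions. The deposited values are CPM, with 2 decimals and totals of 999047 to 999508 per library. The annotation, filters and any use of molecular identifiers were not given in the sources used here. Dividing by the value of 1 read gave whole reads (within 0.1 read) for 100% of values above 0, 1699716 to 3215333 reads per library. Reads may be copies of 1 molecule, so intervals and floors cover counting error only.

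The 11716 genes averaging 1 CPM or more were tested with limma 3.58.1 (R 4.3.3, eBayes with trend, two-sided) on log2(CPM + 1), with Benjamini-Hochberg adjustment over all of them and a threshold of 0.05. SE and 95% intervals are limma's moderated ones. edgeR 4.0.16 and DESeq2 1.42.0 on the recovered reads, other pseudocounts, filters and scalings, and fits without each library were alternatives. The members and gene lists were chosen with earlier results of these data known. Described in full are members past the threshold, those averaging 20 CPM or more, and the 3 tested members of smallest p in each role; untested members are given by reads; from each other list, up to 4 genes past the threshold or the 2 of smallest p. Genes beyond this rule, such as Isg15, Rtp4, Tap2, Erap1, Bst2 and Oas1a, were added to account for every member, after their values were seen. Coordinates and shared 50-base words come from GENCODE vM21 (GRCm38), promoters from RefSeq (GRCm38.p6). The test was checked on 5 simulated data sets with counts drawn independently per gene, where 200 genes averaging 5 CPM or more were changed. It recovered 5.6% of 1.5-fold, 31.2% of 2-fold and 86% of 4-fold changes, and 38 of 594 calls were false. Most 2-fold changes were thus missed there, and the largest fitted change of a member was 2.07-fold (Parp14). More genes passed in each simulated set than the 5 that passed in the data, which loosens the adjusted threshold. Recovery in the data may therefore be lower. It was not checked for genes under 5 CPM, and 18 of the 26 tested members averaged 5 CPM or more. Beyond the genes described, 1 gene of the pathway is not reported here.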

Additional observations from a re-analysis of the deposited data

How the results depend on the processing

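No member and no gene of the other pathway lists passed the threshold under any of the 16 alternatives. The number of genes past it over the whole table, 5, was 2 with a pseudocount of 0.5, 3 with a pseudocount of 5, 1 with no filter, 2 with a minimum mean of 5 CPM, 0 without the trend, 2 by edgeR, 18 by DESeq2, 48 without p63 alphaKO replicate 11 and wild type replicate 15, and 2 to 13 without 1 library. Members at an unadjusted p under 0.05, 4, numbered 1 with no filter, 2 without the trend, 2 by edgeR, 0 by DESeq2 and 0 to 3 without 1 library, where the share over all genes was 5.70%, 7.06%, 6.15%, 5.54% and 3.69% to 7.69%. Tested members whose groups did not overlap, 1, numbered 0 with quantile scaling and 2 with TMM scaling, where 11.1% and 11.7% of all genes did not overlap. By edgeR and by DESeq2 they numbered 2 each, where 11.7% and 11.6% of all genes did so. They numbered 2 to 8 without 1 library, where 17.5% to 25.1% of all genes did not overlap. Without both libraries they numbered 12, where 40.4% of all genes did not overlap. The median log2 fold change of tested members was 0.14 to 0.27 without 1 library. Of the 17 members described in full, 12 kept their sign in every setting that gave a value; Ifit2, 1 of them, fell under the filter in 3 settings. The log2 fold change without 1 library ran from -0.059 to 0.37 for Ifi35, -0.30 to 0.083 for H2-D1, -0.23 to 0.21 for Tapbp, -0.41 to 0.028 for Adar and -0.17 to 0.55 for Stat2. Without both libraries it was -0.20 for Stat2 and 0.18 for Tapbp. The cause of these shifts was not tested. No paired analysis was run, because the labels do not say which cultures, if any, were matched, and the groups share no replicate numbers. At 1 CPM a library of this depth holds 1 to 3 reads, which limits what can be said of the effectors.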
